A study of Mus musculus with 9 samples.

Results

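The amyloid precursor gene *App*, its paralogs *Aplp1* and *Aplp2*, the secretase genes *Psen2*, *Bace1* and *Ncstn*, and the Alzheimer-linked genes *Apoe*, *Clu* and *Sorl1* were followed through an RNA immunoprecipitation-sequencing (RIP-seq) experiment on CELF2, an RNA-binding protein. The 9 genes were given as a list of symbols, out of 21254 protein-coding genes with a row in the table of counts. Together they hold 33 of its 107384 transcript rows, which were summed per gene and also followed row by row. All 9 genes and 30 of the 33 rows passed the filter on low counts, which asked for at least 0.5 CPM, counts scaled to a common library size, in at least 3 libraries.

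All libraries came from the cytoplasmic fraction of cortex of P0 mice heterozygous for the *Celf2* p.R493H knock-in (KI), so that the controls carry the KI allele too and no wild-type library was compared. RNA was recovered with a rabbit antibody against CELF2 (CELF2-KI RIP, called the CELF2 pulldown in the text) or with normal rabbit IgG (IgG RIP, the IgG pulldown), and the input was set aside before the pulldown. Each condition had 3 libraries, which the study describes as biological replicates. The comparison of the CELF2 pulldown with the IgG pulldown and with input asks which cytoplasmic RNAs are recovered with the protein, and it measures neither the effect of the mutation nor the amount of any protein.

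APP is a membrane protein that is cut first by alpha- or beta-secretase and then, within the membrane, by gamma-secretase, and the beta-secretase route releases the amyloid-beta peptide of Alzheimer plaques. BACE1 is the beta-secretase, and gamma-secretase is a complex of a presenilin, nicastrin, an APH1 protein and PEN-2. SORL1 is a sorting receptor that keeps APP away from the compartments where it is cut, while APOE, a lipid carrier made largely by glia, and clusterin, a secreted chaperone encoded by *Clu*, bind amyloid-beta outside the cell.

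Total estimated counts ran from 15919600 to 20052716 in the CELF2 pulldown, from 17365561 to 28773130 in the IgG pulldown and from 69125700 to 105116427 in input. Protein-coding genes took 84.0% to 85.3% of the counts in the CELF2 pulldown and 74.7% to 80.2% in input, but 52.0%, 53.8% and 74.2% in IgG pulldown replicates 1, 2 and 3, where a single row without a matched gene took 34.95%, 32.95% and 10.82%. *Celf2*, whose protein was pulled down, stood at 638 ± 164 CPM (SD, n = 3) in the CELF2 pulldown, 233 ± 33.4 CPM in the IgG pulldown and 296 ± 14.9 CPM in input, and was called higher over both controls. CPM values are on TMM-scaled library sizes, a scaling that sets the bulk of genes to no change. A gene was called when the Benjamini-Hochberg adjusted p-value (FDR) of edgeR's quasi-likelihood test was under 0.01 and the estimated change was at least 2-fold. Since a CPM value is not divided by transcript length, levels are compared between conditions and not between genes.

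Of the 9 genes, *Psen2* was called higher in the CELF2 pulldown than in the IgG pulldown, *Apoe* and *Clu* were called lower, and the other 6 were not called. These 3 calls held when each of the 9 libraries was left out in turn. Over all 15267 tested genes, 13.4% were called higher and 13.6% lower in this comparison. Against input, *Apoe* and *Clu* were called lower and 0 of the 9 genes were called higher, where 15.6% of all tested genes were called lower and 14.6% higher. At an unadjusted p under 0.05 in the same edgeR test, 3 of the 9 genes were higher than in input, and DESeq2 also called 0 of them higher. Called lower against both controls were 9.58% of tested genes, *Apoe* and *Clu* among them, and called higher against both were 7.57%, none of them among the 9 genes. Across the 9 genes the log2 fold changes had a median of -0.13 over the IgG pulldown, beside -0.06 for all tested genes, and -0.37 over input, beside 0.19.

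**Figure D1:**
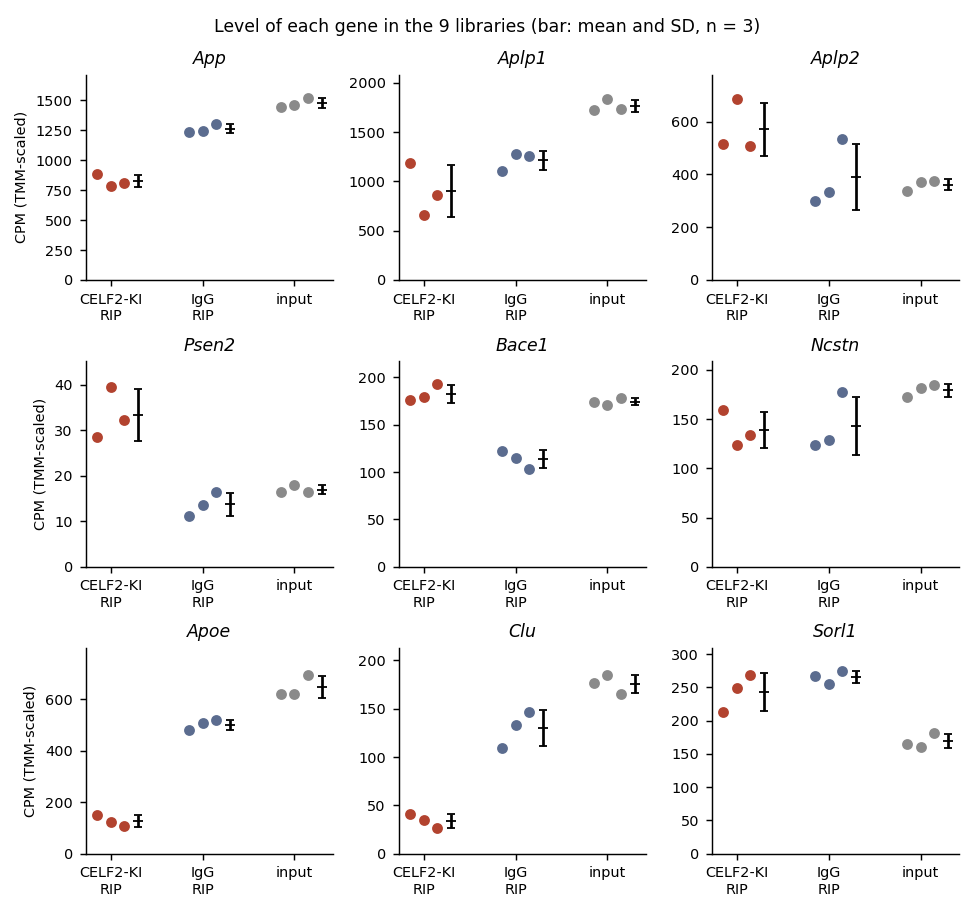
CPM of each of the 9 genes (vertical axes, linear and starting at 0) in 3 libraries each of the input, CELF2-KI RIP (the CELF2 pulldown) and IgG RIP (the IgG pulldown), with the mean and SD beside the points. Apoe and Clu lie lower in all CELF2-KI RIP libraries than in all controls, and Psen2 lies higher.

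*App* itself (chromosome 16, 84952666 to 85175255 in GRCm38.p6, as are all positions here) was recovered less with CELF2 than with IgG. It measured 886, 784 and 810 CPM in the CELF2 pulldown, 1235, 1248 and 1303 CPM in the IgG pulldown, and 1445, 1460 and 1522 CPM in input. All 3 CELF2 pulldown libraries were below all 6 control libraries, and the conditions did not overlap. The mean of 827 ± 52.7 CPM (SD, n = 3) against 1262 ± 36.2 in the IgG pulldown gave a log2 fold change of -0.61 (SE 0.096, FDR 0.000338), and against 1476 ± 40.7 in input one of -0.84 (FDR 3.8e-05). Both changes passed the FDR and fell short of 2-fold, and the one over input passed 2-fold under 6 of 21 alternatives, among them total counts in place of TMM (-1.29). Such a separation is common here, as all CELF2 pulldown libraries lay below all IgG pulldown libraries for 27.4% of tested genes and above them for 30.0%, and below all input libraries for 31.8% and above for 42.1%. With tested genes split by mean CPM into 10 bins of equal size, *App* is in bin 10, the highest, in which the median log2 fold change was 0.61 over the IgG pulldown and 0.76 over input.

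The paralogs of *App*, whose proteins are cut by the same secretases, did not follow it alike. *Aplp1* (chromosome 7, 30434980 to 30445582) measured 1182, 657 and 859 CPM in the CELF2 pulldown, 1101, 1279 and 1259 CPM in the IgG pulldown, and 1728, 1834 and 1735 CPM in input. Its CELF2 pulldown libraries overlapped the IgG pulldown, with replicate 1 within the IgG range, and lay below every input library. The log2 fold change was -0.43 over the IgG pulldown (FDR 0.0642) and -0.97 over input (FDR 0.0009), just under 2-fold. Without CELF2 pulldown replicate 1 it was -1.22 over input, and without input replicate 2 it was -1.05. Over input *Aplp1* was called lower under 11 of 21 alternatives in all, among them DESeq2's Wald test (-1.11) and no filter on low counts (-1.09).

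*Aplp2* (chromosome 9, 31149557 to 31211848) had the opposite sign to *App* in both comparisons. It measured 517, 687 and 510 CPM in the CELF2 pulldown, 301, 334 and 533 CPM in the IgG pulldown, and 338, 373 and 373 CPM in input. IgG pulldown replicate 3 reached the CELF2 pulldown range, and the input libraries did not. The log2 fold change was 0.55 over the IgG pulldown (FDR 0.0403) and 0.66 over input (FDR 0.0166), and neither passed the FDR. In bin 10, which holds *Aplp2*, the medians were 0.61 and 0.76. Without IgG pulldown replicate 3, the estimate over the IgG pulldown was 0.84 (FDR 0.000857), still under 2-fold.

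The ratio of 2 genes within a library does not depend on how libraries are scaled. The pairs given here and below were picked, and how often such a ratio separates over all gene pairs was not counted. Of single tested genes, 30.0% lay above and 27.4% below all IgG pulldown libraries in all 3 CELF2 pulldown libraries. Against input the shares were 42.1% and 31.8%. The counts of *App* were 4.09 times those of *Aplp2* in input and 3.34 times in the IgG pulldown, but 1.46 times in the CELF2 pulldown (geometric means, n = 3 each). The log2 ratios were 0.78, 0.19 and 0.67 in the CELF2 pulldown, 2.04, 1.90 and 1.29 in the IgG pulldown, and 2.10, 1.97 and 2.03 in input. All 3 CELF2 pulldown libraries lay below all 6 controls, by 1.20 on average against the IgG pulldown and 1.49 against input. The ratio of *App* to *Aplp1* overlapped between the CELF2 pulldown and both controls, at a mean log2 of -0.08 in the CELF2 pulldown, 0.06 in the IgG pulldown and -0.26 in input.

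**Figure D2:**
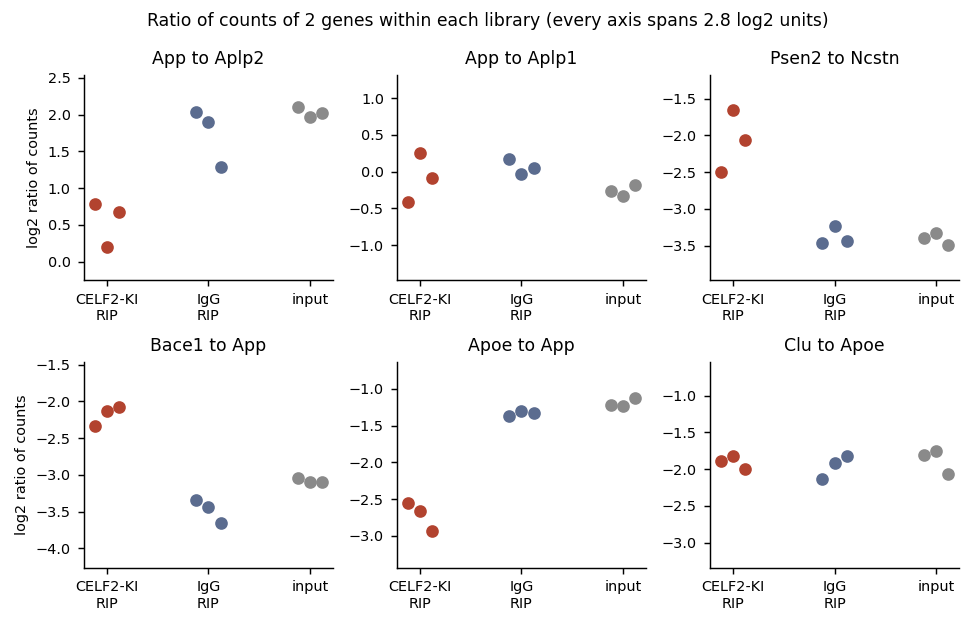
log2 ratio of the counts of 2 genes in each library (vertical axes, all spanning the same range), by condition. The ratio of App to Aplp2 is lower and those of Psen2 to Ncstn and Bace1 to App are higher in every CELF2-KI RIP library than in every control, while the ratio of Clu to Apoe overlaps between conditions.

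Among the secretase genes, *Psen2* (chromosome 1, 180227004 to 180263467), which encodes a presenilin, the catalytic subunit of gamma-secretase, was the only one of the 9 genes called higher over the IgG pulldown. It measured 28.4, 39.6 and 32.2 CPM in the CELF2 pulldown, 11.2, 13.7 and 16.3 CPM in the IgG pulldown, and 16.3, 18.0 and 16.4 CPM in input. All 3 CELF2 pulldown libraries were above all 6 controls. The rise was 2.43-fold over the IgG pulldown (log2 1.28, SE 0.18, FDR 0.000153) and 1.97-fold over input (log2 0.98, FDR 0.000653), the latter just short of a call. *Psen2* had the lowest mean CPM of the 9 genes, in bin 6 of the 10, where the median log2 fold change was -0.03 over the IgG pulldown and 0.04 over input. The call over the IgG pulldown ended with library sizes left at total counts (log2 0.91, FDR 0.000906), under a test against 2-fold itself (FDR 0.121), and when only curated NM rows or only rows of the table's own version were summed (log2 0.97 in both, FDR 0.665 and 0.643).

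*Bace1* (chromosome 9, 45838545 to 45862484) was higher over the IgG pulldown by 1.61-fold, short of a call. It measured 176, 179 and 193 CPM in the CELF2 pulldown, 122, 115 and 103 CPM in the IgG pulldown, and 174, 170 and 179 CPM in input. The CELF2 pulldown libraries lay above all IgG pulldown libraries and overlapped input. The log2 fold change was 0.68 over the IgG pulldown (SE 0.10, FDR 0.000264), beside a median of 0.61 in bin 10, which holds *Bace1*. Over input it was 0.06 (FDR 0.61), a value whose sign turned under other scalings (-0.40 with total counts), and the IgG pulldown was below input by a log2 of -0.62 (FDR 0.00125). The ratio of *Bace1* to *App* was 0.221 in the CELF2 pulldown, 0.0898 in the IgG pulldown and 0.118 in input, and every CELF2 pulldown library was above every control.

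*Ncstn* (chromosome 1, 172066013 to 172082789) encodes nicastrin, the gamma-secretase subunit that binds substrates. It measured 160, 124 and 134 CPM in the CELF2 pulldown, 124, 129 and 177 CPM in the IgG pulldown, and 172, 181 and 185 CPM in input. The RIP conditions overlapped, and the CELF2 pulldown lay below input. Its log2 fold change of -0.04 over the IgG pulldown (SE 0.15, FDR 0.841) changed sign without IgG pulldown replicate 3 (0.14), and over input it was -0.37 (FDR 0.0595). Within libraries, the counts of *Psen2* were 0.239 times those of *Ncstn* in the CELF2 pulldown, 0.0960 times in the IgG pulldown and 0.0942 times in input, with all 3 CELF2 pulldown libraries above all 6 controls. In the gene sums, these genes of the same complex differed in recovery by a log2 of 1.31 against the IgG pulldown and 1.34 against input. With curated NM rows alone, the call of *Psen2* over the IgG pulldown ended and the value of *Ncstn* changed sign. In the annotation *Bace1* overlaps *Rnf214*, *Ncstn* overlaps *Copa*, *Psen2*, *App* and *Sorl1* each overlap a long noncoding RNA (Gm31728, Gm10791 and Gm16214), and *Aplp2* overlaps 2 pseudogenes. *Rnf214* stood at a log2 of 0.83 over the IgG pulldown and 1.24 over input, and *Copa* at 0.86 and 1.19. These overlaps are of gene spans, and sequence shared between transcripts was not examined. Since the use of strand in counting is not stated, reads from any shared sequence cannot be assigned with certainty.

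*Sorl1* (chromosome 9, 41964709 to 42124297) stood apart from the others because both pulldowns lay above input. It measured 212, 249 and 269 CPM in the CELF2 pulldown, 267, 256 and 274 CPM in the IgG pulldown, and 166, 161 and 181 CPM in input. The CELF2 pulldown and the IgG pulldown overlapped, and every pulldown library exceeded every input library. The log2 fold change was 0.53 over input (FDR 0.00226) for the CELF2 pulldown, 0.65 (FDR 0.00159) for the IgG pulldown, and -0.13 (FDR 0.379) between the pulldowns. In the comparison of the IgG pulldown with input 0 of the 9 genes were called, by edgeR and by DESeq2, beside 6.81% of tested genes called higher and 5.06% lower. In edgeR 1 gene, *Sorl1*, was higher and 5 were lower at an unadjusted p under 0.05.

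*Apoe* (chromosome 7, 19696244 to 19701310) and *Clu* (chromosome 14, 65968483 to 65981548) gave the largest differences of the 9 genes. *Apoe* measured 151, 124 and 106 CPM in the CELF2 pulldown, 480, 506 and 518 CPM in the IgG pulldown, and 620, 622 and 696 CPM in input. No CELF2 pulldown library came near a control. *Apoe* was 3.95-fold lower than in the IgG pulldown (log2 -1.98, SE 0.14, FDR 5.29e-06), at percentile 4.2 of tested genes, and 5.09-fold lower than in input (log2 -2.35, FDR 6.85e-07). *Clu* measured 40.9, 35.1 and 26.4 CPM in the CELF2 pulldown, 110, 134 and 147 CPM in the IgG pulldown, and 177, 185 and 166 CPM in input. It was 3.80-fold lower than in the IgG pulldown (log2 -1.93, FDR 1.06e-05) and 5.14-fold lower than in input (log2 -2.36, FDR 2.55e-06), again without overlap. By mean CPM, *Apoe* lies in bin 10 and *Clu* in bin 9, whose median log2 fold changes over the IgG pulldown were 0.61 and 0.41. *Aplp1*, *Aplp2*, *Bace1*, *Ncstn* and *Sorl1* are also in bin 10.

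The level of *Clu* relative to *Apoe* overlapped between the 3 conditions, at a mean log2 ratio of -1.90 ± 0.095 in the CELF2 pulldown, -1.96 ± 0.158 in the IgG pulldown and -1.88 ± 0.170 in input (SD, n = 3). The log2 ratio of *Apoe* to *App* differed by -1.39 from the IgG pulldown and by -1.52 from input, and all CELF2 pulldown libraries lay below all controls. For *Clu* the call over the IgG pulldown did not hold when curated NM rows alone were summed (log2 -1.47, FDR 0.0153), a sum that leaves out the row with most of its counts.

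**Figure D3:**
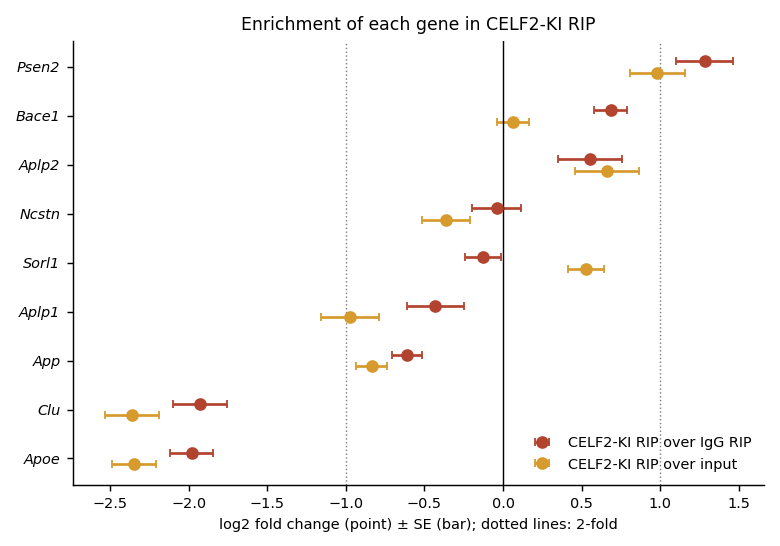
log2 fold change (horizontal axis, point) with its SE (bar) of each gene in CELF2-KI RIP over IgG RIP and over input, ordered by the value over IgG RIP, with dotted lines at 2-fold. Psen2 is past the line only over IgG RIP, and Apoe and Clu are past it in both comparisons.

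Ordered by the change over the IgG pulldown, the genes ran from *Psen2* through *Bace1*, *Aplp2*, *Ncstn*, *Sorl1*, *Aplp1*, *App* and *Clu* to *Apoe*. Compared as within-library ratios, neighbours in this order differed without overlap at 3 steps, from *Psen2* to *Bace1*, from *Aplp2* to *Ncstn* and from *App* to *Clu*. The other 5 steps, *Bace1* to *Aplp2*, *Ncstn* to *Sorl1*, *Sorl1* to *Aplp1*, *Aplp1* to *App* and *Clu* to *Apoe*, overlapped between the 3 CELF2 pulldown and the 3 IgG pulldown libraries. Since the order was taken from these same libraries, it set the direction of each step, and the separated steps are no test of a ranking.

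Since *Apoe* and *Clu* are transcribed mainly in glia, markers of the cell types in the cortical lysate were read beside them. Input was an aliquot of the lysate that went into the pulldowns, so that the mix of cells in the lysate is shared by design. The part of each cell type in the RNA recovered with CELF2 was not measured. The paper reports high CELF2 in excitatory neurons of the postnatal cortex. For a level in input alone, fewer cells of a type and less of an RNA per cell cannot be told apart. Of 7 radial glia markers, 3 were lower over the IgG pulldown (*Fabp7*, *Vim* and *Nes*), with a summed level of 507 to 966 CPM in the CELF2 pulldown, 765 to 849 in the IgG pulldown and 1160 to 1362 in input. Of 6 astrocyte markers, *Aldoc* was lower and *Aqp4* higher, with sums of 460 to 504, 318 to 359 and 513 to 545 CPM. Of 8 tested microglia and macrophage markers, 3 were lower (*C1qb*, *C1qc* and *Mrc1*) and *Cx3cr1* was higher, with sums of 161 to 195, 165 to 234 and 300 to 369 CPM. *P2ry12*, which marks microglia, was not tested and was at 0 counts in all 6 pulldown libraries, and *Csf1r*, *Aif1* and the astrocyte marker *Aldh1l1* were at 0 in at least 1 library.

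Neuronal markers were present as the cortical label implies, with excitatory neuron sums of 910 to 1078 CPM and pan-neuronal sums of 4168 to 4518 CPM in input. All 4 erythroid markers were called lower over the IgG pulldown, with sums of 73.7 to 77.1 CPM in the CELF2 pulldown, 282 to 451 in the IgG pulldown and 709 to 916 in input. Of 6 excitatory neuron markers 3 were higher and of 5 pan-neuronal markers 3 were higher over the IgG pulldown, and of 5 endothelial markers 1 was lower. The medians of the oligodendrocyte precursor and choroid plexus markers over the IgG pulldown, -0.56 and -0.67, were below that of all genes. No marker of either was called there in edgeR. At an unadjusted p under 0.05 in edgeR, 1 of the 5 oligodendrocyte precursor markers was higher (*Pdgfra*, log2 0.59) and 3 were lower. Of the 5 choroid plexus markers, 0 passed. DESeq2 called 1 oligodendrocyte precursor marker lower and 0 choroid plexus markers. Over input, 2 oligodendrocyte precursor, 1 choroid plexus, 3 radial glia and 1 astrocyte marker were called lower. So were 5 microglia and macrophage, 3 erythroid and 2 endothelial markers. Called higher over input were 3 excitatory neuron markers and 1 pan-neuronal marker. Of all tested genes, 13.6% were called lower and 13.4% higher over the IgG pulldown, and 15.6% and 14.6% over input. The part of these differences in the values of *Apoe* and *Clu* was not tested.

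The single transcript rows were less steady than the gene sums. Kallisto divides reads that match several transcripts of a gene by an estimate, and with related transcripts this split can move between libraries while the sum stays in place. In row by row tests over 39137 rows, 2 of the 30 tested rows were lower over the IgG pulldown, beside 3.08% of all rows, and 0 were higher, beside 3.06%, although 1 row was higher at an unadjusted p under 0.05. Over input 5 rows were lower, beside 4.45%, and 0 were higher, beside 0.912%, although 2 were higher at an unadjusted p under 0.05. In the IgG pulldown over input 1 row was higher, beside 0.818%, and 0 were lower, beside 1.52%, although 8 were lower at an unadjusted p under 0.05. The median row changed by a log2 of -0.36 over the IgG pulldown and -0.91 over input, where the median of all rows was -0.20 and -0.14.

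The rows called lower over the IgG pulldown were the main rows of *Apoe* and *Clu*. NM_001305844.1 held 92.3%, 85.9% and 84.5% of the *Apoe* counts in the CELF2 pulldown, 86.6%, 95.6% and 87.3% in the IgG pulldown and 89.8%, 92.7% and 79.1% in input. It was lower by a log2 of -2.23 over the IgG pulldown (FDR 0.000771) and -2.80 over input. Rows were filtered and scaled apart from the gene sums, so row and gene values are not on one scale. Set against the change of its own gene, in the usage test described below, this row stood at -0.03 and 0.02. The predicted transcript XM_006518503.3 held 80.2% to 86.8% of the *Clu* counts in the CELF2 pulldown and was lower by -2.27 over the IgG pulldown (FDR 0.00134) and -2.83 over input. Over input, NM_013492.3 of *Clu* (-3.02), NM_007471.3 of *App* (-1.49) and NM_007467.3 of *Aplp1* (-1.44), the only row of that gene, were called lower as well. The *Aplp1* row holds the same counts as the gene, which stood at -0.97 over input in the gene fit and was not called. *Sorl1*, also of a single row, stood at 0.04 over input in the row fit and 0.53 in the gene fit. These gaps come from the scaling and are no further loss of the row.

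For *App*, NM_007471.3 held 80.1%, 77.0% and 73.9% of the counts in the CELF2 pulldown, 81.1%, 79.7% and 80.4% in the IgG pulldown, and 88.9%, 86.5% and 86.0% in input. It was thus the main *App* row in every library, and its share was lower in each pulldown library than in each input library. The predicted row XM_006522873.2 took 8.64% to 11.1% in the CELF2 pulldown and 3.09%, 3.66% and 3.13% in input, with 7.43%, 7.79% and 4.91% in the IgG pulldown. XM_006522874.1 took 2.61% to 3.73% in the CELF2 pulldown and 1.62% to 5.24% in the IgG pulldown, beside 0.41% to 0.49% in input, and was the row called higher in the IgG pulldown over input (log2 2.52, FDR 0.00978). NM_001198825.1 and NM_001198826.1 of *App* and NM_009691.2 of *Aplp2* did not pass the filter, and the first 2 held at most 0.29% of the *App* counts in any library.

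In a test of usage, which sets the change of a row against that of its gene, 0 of 28 rows were called in each comparison. Of all rows tested, 0.584% were called for usage over the IgG pulldown, 0.404% over input and 0.556% in the IgG pulldown over input. At an unadjusted p under 0.05, 1, 2 and 3 of the 28 rows passed in these comparisons. With background shares this low, 0 of 28 says little about these genes. The row nearest to a call was XM_006522874.1 of *App* in the IgG pulldown over input (log2 2.99, FDR 0.0396), and over input in the CELF2 pulldown its FDR was 0.0913 and that of XM_006522873.2 was 0.227.

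*Psen2* shows how far the row estimates moved. XM_011238776.2 held 79.2%, 61.0% and 51.8% of its counts in the CELF2 pulldown and 100%, 100% and 0.01% in the IgG pulldown. In IgG pulldown replicate 3 the counts lay on NM_011183.3 instead, at 74.7%, while the whole gene measured 16.3 CPM there, beside 11.2 and 13.7 CPM in the other IgG libraries. No *Psen2* row was called in any comparison. *Ncstn* had a like pattern, in that NM_021607.3 held 57.3%, 8.21% and 54.1% of its counts in the IgG pulldown and 55.1%, 59.4% and 47.2% in the CELF2 pulldown. For *Aplp2*, NM_001102455.1 held 45.1% to 56.1% in the CELF2 pulldown, 46.1% to 52.5% in the IgG pulldown and 36.2% to 38.9% in input. For *Bace1*, NM_011792.6 held 61.8% to 74.3%, 72.2% to 93.3% and 78.6% to 81.9% in the same order, widest in the IgG pulldown.

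**Figure D4:**
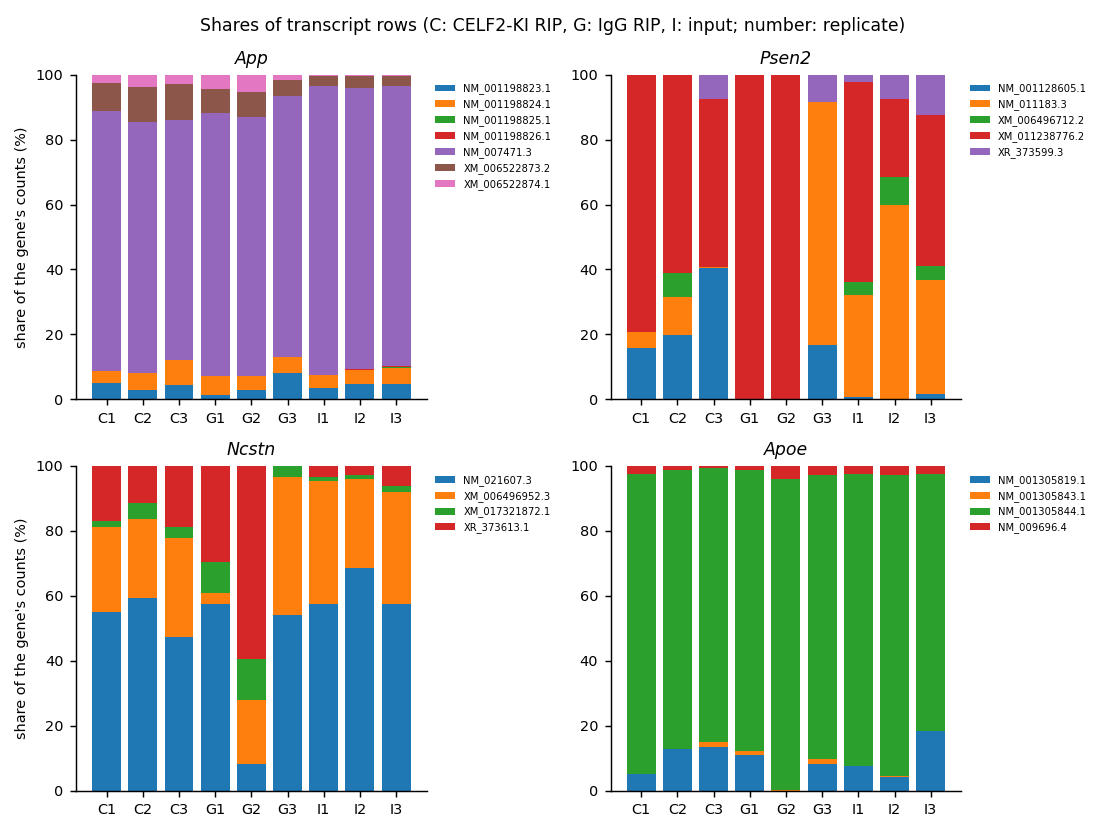
Share of the counts of App, Psen2, Ncstn and Apoe (stacked bars, percent) given to each transcript row in each of the 9 libraries. The main rows of App and Apoe lead in all 9 libraries, while the split of Psen2 and Ncstn moves between IgG RIP libraries.

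The other genes of the pathway were read from lists of symbols. Beside them, 13.4% of all tested genes were called higher and 13.6% lower over the IgG pulldown, with a median log2 fold change of -0.06. Over input the shares were 14.6% and 15.6%, with a median of 0.19. In bin 10, the genes of highest mean CPM, the medians were 0.61 and 0.76. Of 8 tested secretase subunits and sheddases, 3 were called higher and 1 lower over the IgG pulldown, with a median log2 fold change of 0.61, and over input *Aph1b*, *Aph1c* and *Adam9* were higher and *Psenen* lower, with a median of 0.71. *Aph1a* and *Aph1b*, which encode alternative APH1 scaffolds of gamma-secretase, were higher over the IgG pulldown by 1.74 and 2.19. *Aph1a* measured 224, 206 and 205 CPM in the CELF2 pulldown, 62.5, 68.8 and 59.2 CPM in the IgG pulldown, and 113, 119 and 107 CPM in input. *Aph1b* measured 187, 230 and 165, 44.6, 42.3 and 40.6, and 79.2, 77.2 and 65.4 CPM in the same order, and in mouse it has a near-identical copy, *Aph1c*, so the split between them is uncertain. In both genes the IgG pulldown lay below input, and the CELF2 pulldown lay above it. *Psenen*, which encodes PEN-2, was lower by -2.39 over the IgG pulldown and -3.86 over input, at 2.21 ± 0.457 CPM in the CELF2 pulldown, 11.7 ± 4.77 in the IgG pulldown and 32.3 ± 0.273 in input (SD, n = 3). Genes of gamma-secretase subunits were therefore called in both directions, with *Psen2*, *Aph1a* and *Aph1b* higher, *Psenen* lower and *Ncstn* not called over the IgG pulldown. *Adam9*, a metalloprotease, was higher by 1.03, and *Adam10*, the main alpha-secretase of neurons, had a value of 0.72 (FDR 0.000499) under the 2-fold limit.

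Of 18 genes of APP adaptors and sorting, 4 were higher and 3 lower over the IgG pulldown, with a median of 0.17. *Itm2c*, a BRI family protein that binds APP, stood at 522 ± 38.3 CPM in the CELF2 pulldown and 142 ± 31.0 in the IgG pulldown (log2 1.88), *Rtn3*, a reticulon that binds BACE1, at 1.58, and *Sort1*, which encodes sortilin, a relative of SORL1, at 1.21. Over input *Itm2c*, *Rtn3* and *Sort1* were not called, at 0.99, 0.75 and 0.73. Their IgG pulldown libraries lay below input, by a log2 of -0.89, -0.83 and -0.47. *Apba3*, a PTB-domain adaptor of APP, was lower by -1.92, and the trafficking adaptors *Gga1* and *Gga3*, which carry BACE1, were lower by -1.42 and -1.12. For *Gga3* the value over input was 0.06 (FDR 0.743), and the IgG pulldown was called higher than input (log2 1.17, FDR 0.00022). Over input *Apba1*, *Apbb2* and *Snx27* were higher and *Apba3* and *Gga1* lower, with a median of 0.43.

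Of 8 apolipoprotein receptors and lipid transporters, 2 were higher over the IgG pulldown, both of them receptors for APOE, and 1 was lower, with a median of 0.09. *Vldlr* rose by a log2 of 1.38 and *Lrp8* by 1.17, and the lipid carrier *Apod* was lower by -1.79. These 3 genes were called in the same directions over input, and *Abca1*, a lipid exporter, was called higher there as well. The receptor genes did not move together. Over the IgG pulldown *Lrp1* had a value of -0.49 (FDR 0.0016) and *Lrp2* one of -0.48 (FDR 0.049). Neither was called, although for both every CELF2 pulldown library was below every IgG library. Over input their values in the CELF2 pulldown were 0.94 and 0.99. In the IgG pulldown both were called higher than input, at 1.43 and 1.48. Of 13 other genes near Alzheimer risk loci or in tangles, *Mapt*, which encodes tau, was higher by 1.69, at 2744 ± 737 CPM against 853 ± 63.1 in the IgG pulldown. *Trem2*, a microglial receptor for APOE, was lower by -1.86, at 1.0 ± 0.20 CPM against 3.68 ± 0.920. The median of this list was -0.46 over the IgG pulldown and -0.25 over input, where 1 gene was higher and 2 were lower. Of 4 amyloid-beta degrading enzymes, 0 were called over the IgG pulldown by edgeR or DESeq2, and 0 had an unadjusted p under 0.05 in edgeR. Their values ran from 0.04 for *Mme*, which encodes neprilysin, to -1.30 for *Ece2*, with FDRs of 0.931 and 0.182.

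**Figure D5:**
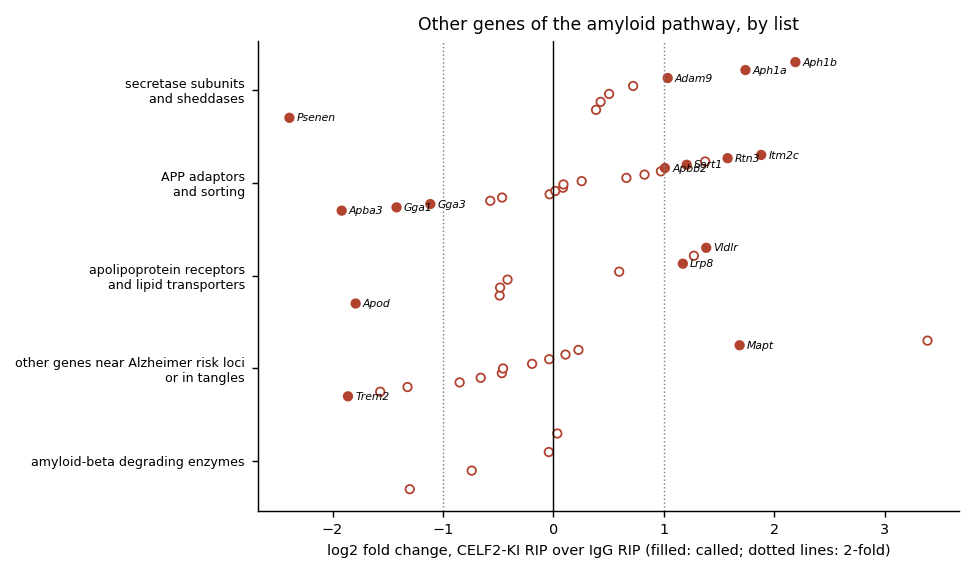
log2 fold change in CELF2-KI RIP over IgG RIP (horizontal axis) of the genes of 5 lists, with called genes filled and named and dotted lines at 2-fold. In 4 of the lists genes were called in both directions, and in the list of amyloid-beta degrading enzymes none were.

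The patterns over the 9 libraries were compared with those of 9723 genes of at least 10 CPM by Pearson's r of log2 CPM, which describes the order of the same libraries and is set largely by the differences between conditions. *App* was most like *Rpl13a*, *Timm50* and *H4c1* (r of 0.997 each). *Psen2* was most like *Psap* (r = 0.995), *Magt1* and *Lgr4* (both 0.994), and *Apoe* was most like *Ndufb7* (0.998), *Lrpap1* and *Snapc2* (both 0.997). A high r does not mean an equal size of change, as *Rpl13a* was lower by -2.50 over the IgG pulldown and *App* by -0.61.

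The share of calls in each direction depended on how libraries were scaled. Of all tested genes, 2044 were called higher and 2074 lower over the IgG pulldown, and with total counts in place of TMM 936 and 3431. Over input the calls were 2226 and 2377, and with total counts 530 and 3587. In the IgG pulldown over input they were 1040 and 773, and with TMM over coding and noncoding genes 786 and 1257. Total counts moved the median of all genes from -0.06 to -0.42 over the IgG pulldown and from 0.19 to -0.27 over input, and the 9 genes moved with it. *Apoe* stayed lower under all 21 alternatives. Its log2 fold change ran from -1.87 to -2.34 over the IgG pulldown and from -2.23 to -2.80 over input.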

How the data were processed

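RNA was measured in 9 libraries. The authors trimmed reads with fastp 0.23.4, removed rRNA reads with Ribodetector 0.3.1 and deposited estimated counts per transcript from Kallisto 0.51.1, not normalized. The paper names an Ensembl transcriptome, whereas rows carry RefSeq accessions, and the processing notes name mm10. Rows were matched to genes by accession without version in RefSeq's GRCm38.p6 gene table (86722 of 107384 rows, 80.8%), summed and rounded.

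The 15267 protein-coding genes that reached 0.5 CPM in 3 or more libraries were fitted together with a mean per condition in edgeR 4.0.16 (R 4.3.3) with TMM and robust quasi-likelihood tests. Rows were fitted likewise, with a filter and TMM scaling of their own, and usage with diffSpliceDGE, which compares a row with its whole gene. SEs are the log2 fold change divided by the root of F. P-values measure the spread between libraries, 3 per condition. Counts were checked for duplicate libraries, and none was found. Scripts were tested on simulated data. Alternatives were other scalings, filters, row sets, DESeq2 1.42.0, glmTreat, a replicate block and leaving out each library. Deviations from the condition mean were correlated between libraries of the same replicate number over 11534 genes. The correlations were 0.12 to 0.21 for CELF2-KI RIP and input and -0.07 to 0.09 for the other comparisons. Libraries of unlike number were not compared, so these values do not settle whether the numbers pair the samples. Values of the same gene in the 2 comparisons share the CELF2-KI RIP libraries.

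The genes, pathway and marker lists were chosen with earlier results of these data known. Named are the 9 genes with their rows, the genes of each pathway list with the 3 largest called rises and falls over IgG RIP (the highest and lowest where none was called), and the 3 genes most like *App*, *Psen2* and *Apoe*. *Adam10*, *Aph1c*, *Abca1*, *Lrp1*, *Lrp2*, *Apba1*, *Apbb2*, *Snx27*, *Rnf214*, *Copa* and the marker genes were named after their values were seen. A few genes of the pathway lists are not reported here.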

Additional observations from a re-analysis of the deposited data

How the results depend on the processing

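Over IgG RIP, *Psen2* was the 1 gene called higher, and 0 were called with total counts, glmTreat, NM rows or version-matched rows. Of the 2 called lower, 1 remained with NM or version-matched rows, where *Clu* stood at -1.47 and -1.44. Over input, 4 in place of 2 were lower with upper-quartile scaling, total counts, TMM over coding and noncoding genes, only the 2 conditions, NM rows and version-matched rows, with *App* and *Aplp1* added. Leaving out a library gave 0 to 1 genes higher over input (*Psen2*, at 1.09 without CELF2-KI RIP replicate 1 and 1.01 without replicate 3). Of the 2 rows lower over IgG RIP, 1 was called under glmTreat and 1 with the replicate block, and leaving out a library gave 2 to 4, with 4 without IgG RIP replicate 3. The replicate block changed no call of the 9 genes.

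Over input, *Bace1* turned from 0.06 to -0.074 with DESeq2's size factors and its Wald test, -0.17 with the upper quartile, -0.40 with total counts, -0.32 with TMM over all genes, -0.053 without filter, -0.16 with only the 2 conditions, -0.18 with NM rows and -0.22 with version-matched rows, and ranged from -0.065 to 0.091 when leaving out a library. *Ncstn* over IgG RIP turned to 0.20 with NM rows and 0.21 with version-matched rows, with -0.15 to 0.14 when leaving out a library. *Aplp2* in IgG RIP over input turned from 0.11 to -0.051 with TMM over all genes and -0.19 with version-matched rows, with -0.18 to 0.27. The cause was not tested. *Sorl1* had no value with version-matched rows. For the 9 genes over IgG RIP, 178 values kept sign and side of the threshold, 6 lost the call and 4 turned; over input 159 kept both, 19 gained a call and 10 turned; in IgG RIP over input 185 kept both and 3 turned. Calls over all genes ranged from 548 to 2212 higher and 632 to 3431 lower over IgG RIP, 341 to 2534 and 1131 to 3587 over input, and 112 to 1557 and 56 to 1257 in IgG RIP over input. Because they did not reach 0.5 CPM in at least 3 libraries, 3 of the 33 rows were not tested.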
